A study of Mus musculus with 9 samples.

Results

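The nuclear genes of the respiratory chain were followed by complex in cardiomyocytes, the contracting cells of the heart, isolated from newborn mouse pups. The genes were taken by symbol: Nduf subunits and the Ndufaf assembly factors, kept apart, for complex I, Sdha to Sdhd for complex II, the Uqcr genes and Cyc1 for complex III, Cox4 to Cox8 for complex IV and Atp5 for complex V. Of 94 matching symbols in a table of 18738 genes, 93 reached an average of 1 TPM or more (TPM is a level per transcript length, scaled to the library total) and are described here, among 13655 genes at that level. They comprise 39 genes of complex I, 8 assembly factors of complex I, 4 genes of complex II, 9 of complex III, 16 of complex IV and 17 of complex V. The gene left out, Ndufb4b, was listed at 0 in 8 libraries and at 2.44 TPM in sHFD library 3, while the lowest genes kept, Cox6b2 and Ndufaf3, had means of 9.47 and 13.0 TPM.

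All pups were wild type, of the C57BL/6J strain, and were sampled at P0, the day of birth. From fertilization until they gave birth, the mothers ate 1 of 3 randomly assigned diets: normal (ND), slight high-fat (sHFD) or high-fat (HFD). Each diet had 3 RNA-seq libraries, 9 in all. The labels do not say whether libraries of a diet came from separate pups or litters, so p-values measure only the spread between these libraries, which may be technical.

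The respiratory chain sits in the inner mitochondrial membrane. Complex I takes electrons from NADH and complex II, which is also an enzyme of the citric acid cycle, takes them from succinate. Coenzyme Q carries the electrons to complex III and cytochrome c carries them to complex IV, which reduces oxygen. Complexes I, III and IV pump protons, and complex V, the ATP synthase, uses the proton gradient to make ATP. Heart muscle depends on this supply, and around birth its cells shift from glycolysis towards oxidative metabolism. Every complex except complex II also holds subunits encoded in mitochondrial DNA, and 0 genes of that DNA are in the table, so only the nuclear share of each complex is seen here.

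Promoters of these genes are known for sites of a few shared factors: NRF1, ETS proteins such as GABPA, the estrogen-related receptors (ERR) and YY1. A RefSeq promoter window (GRCm38.p6, 250 bases before to 50 after a start) was found for 75 of the 93 genes, and each was searched on both strands for the letters GCATGCGC (NRF1), CCGGAAGT (ETS), TCAAGGTCA (ERR) and ATGGCGGC (YY1), none of which contains another. The NRF1 letters were in 12 of the 75 genes, or 16.0%, against 5.62% of the 10871 tested genes with a window and 3.05% of all 27025 genes with one. The ERR letters were in 2 genes (2.67%, against 0.294% and 0.466%), the YY1 letters in 7 (9.33%, against 5.28% and 2.60%) and the ETS letters in 5 (6.67%, against 8.48% and 4.31%). The 7 windows below show where these letters lie in genes of each class, complex III by an ETS match in Uqcr11 and the ERR match by Atp5g3. They are written 5′ to 3′ along the gene, with the matching letters in capitals. The Atp5g3 letters are on the other strand.
Ndufa6 (chr15:82354352-82354389, minus strand): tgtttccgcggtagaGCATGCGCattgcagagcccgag
Ndufaf4 (chr4:24897957-24897994, plus strand): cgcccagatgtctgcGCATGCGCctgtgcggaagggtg
Sdhb (chr4:140961202-140961239, plus strand): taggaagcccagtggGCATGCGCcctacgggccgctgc
Cox6a1 (chr5:115349096-115349133, minus strand): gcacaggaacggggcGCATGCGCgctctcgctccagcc
Atp5k (chr5:108434425-108434462, minus strand): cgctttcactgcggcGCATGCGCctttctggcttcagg
Uqcr11 (chr10:80406865-80406902, minus strand): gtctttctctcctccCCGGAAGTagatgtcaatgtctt
Atp5g3 (chr2:73911355-73911393, minus strand): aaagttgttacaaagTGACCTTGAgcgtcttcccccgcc
In Sdhb, for an iron-sulfur subunit of complex II, the NRF1 letters lie 54 to 47 bases before the start. In Ndufaf4 they lie 111 to 104 bases before it. A match is a description of letters, not of a bound site.

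The next sequences are the 250 bases before the start of Ndufaf1, Uqcrc1 and Ndufs7, shown because these genes had the smallest adjusted p of any nuclear respiratory gene in the comparison of HFD with sHFD. None of the 4 searched sets of letters is in them, so no letters are in capitals. In the full windows, Uqcrc1 holds the NRF1 letters and Ndufs7 the YY1 letters at or after the start. The Ndufaf1 and Ndufs7 sequences and the Atp5g3 window above belong to starts that lie inside the annotated gene. The absence of these letters says nothing about the factors themselves.
Ndufaf1 (chr2:119662835-119663084, minus strand): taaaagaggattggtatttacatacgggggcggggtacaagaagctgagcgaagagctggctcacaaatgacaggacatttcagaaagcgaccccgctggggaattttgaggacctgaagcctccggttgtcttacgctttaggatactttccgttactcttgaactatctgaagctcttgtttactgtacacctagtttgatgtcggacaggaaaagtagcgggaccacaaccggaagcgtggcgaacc
Uqcrc1 (chr9:108936398-108936647, plus strand): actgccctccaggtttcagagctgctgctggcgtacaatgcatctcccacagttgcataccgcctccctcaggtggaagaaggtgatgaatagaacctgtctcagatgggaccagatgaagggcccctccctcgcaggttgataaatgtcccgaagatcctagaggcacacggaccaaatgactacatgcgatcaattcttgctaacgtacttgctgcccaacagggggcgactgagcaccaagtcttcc
Ndufs7 (chr10:80249199-80249448, plus strand): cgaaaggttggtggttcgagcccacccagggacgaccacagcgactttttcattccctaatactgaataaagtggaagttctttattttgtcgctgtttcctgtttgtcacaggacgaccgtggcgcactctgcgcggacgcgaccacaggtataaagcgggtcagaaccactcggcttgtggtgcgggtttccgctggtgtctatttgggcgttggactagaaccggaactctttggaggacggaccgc

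Read depth cannot be recovered from TPM and is unknown for these libraries. Cardiomyocyte markers were abundant in every library, with the 12 listed genes summing to 27097 to 58599 TPM. The 10 fibroblast markers summed to 7832 to 11855 TPM and the 10 endothelial markers to 6360 to 10625 TPM, so RNA of other heart cells was present too. In such bulk samples fewer cells of a type and less RNA per cell cannot be told apart.

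The 93 genes together made up 3.34%, 4.76% and 4.11% of all TPM in ND libraries 1 to 3, 5.98%, 4.34% and 5.16% under sHFD and 4.90%, 4.34% and 3.24% under HFD. The diets overlapped: sHFD library 1 was the highest, and HFD library 3 and ND library 1 were the lowest. Complex V took the largest part, with 1.29%, 1.88% and 1.57% in ND, 2.25%, 1.77% and 2.00% in sHFD and 1.88%, 1.71% and 1.31% in HFD. The assembly factors of complex I took the smallest, at 0.0122% to 0.0217% of a library.

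**Figure D1:**
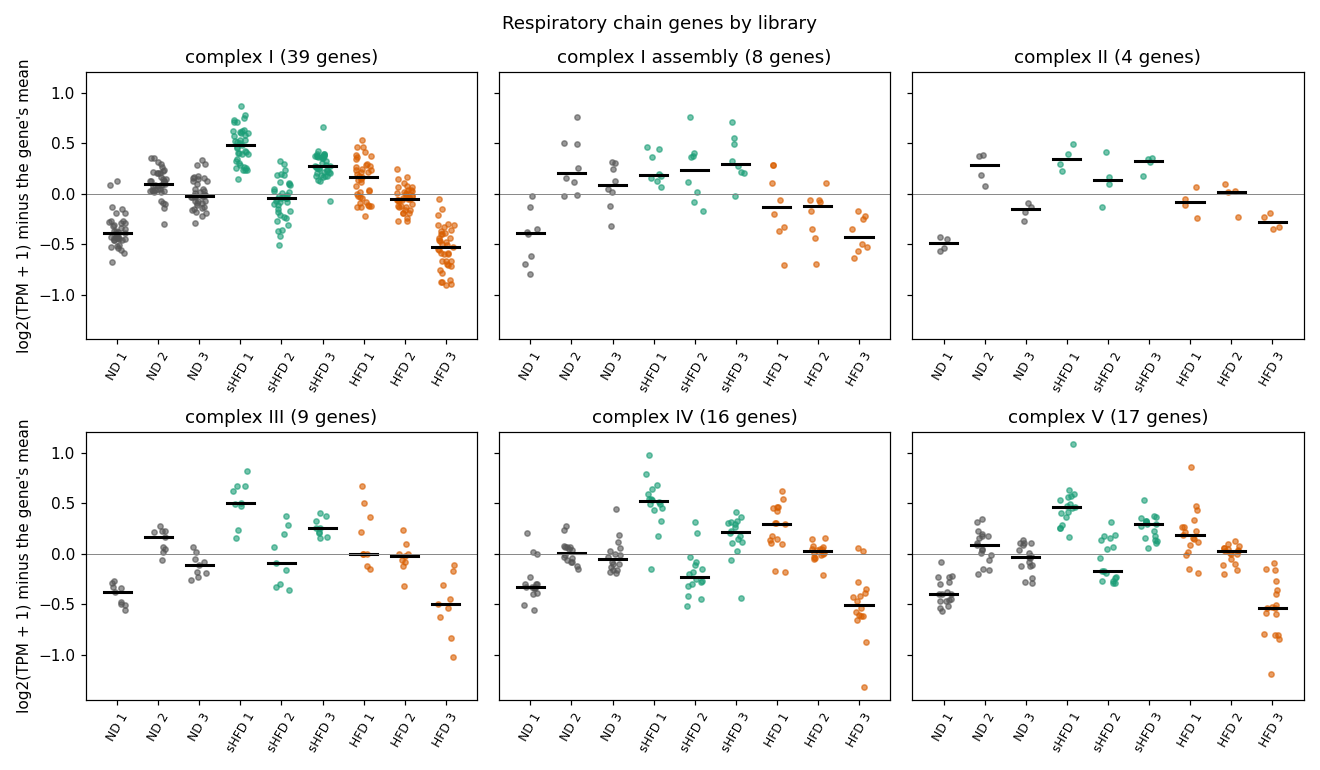
Each point is 1 gene in 1 library, as log2(TPM + 1) minus that gene's mean over the 9 libraries, in 6 panels by class with the libraries on the x axis, and bars mark medians. In each class the median of ND library 1 and of HFD library 3 lies below 0. That of ND library 2, of sHFD library 1 and of sHFD library 3 lies above 0.

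In ND libraries 1 and 2, sHFD libraries 1 and 3 and HFD library 3 the class medians all lay on one side of 0. In sHFD library 2 they ran from -0.22 in complex IV to 0.24 in the assembly factors. In HFD library 1 they ran from -0.13 in the assembly factors to 0.30 in complex IV. Over all 93, the median of log2(TPM + 1) minus the gene's mean was -0.39, 0.08 and -0.03 in ND libraries 1 to 3, 0.47, -0.08 and 0.27 under sHFD and 0.15, -0.02 and -0.50 under HFD. Complex IV had the widest such range, from -0.50 in HFD library 3 to 0.53 in sHFD library 1. In complex II the 3 sHFD libraries were at 0.35, 0.13 and 0.33 and the HFD libraries at -0.08, 0.02 and -0.28, which do not overlap. The assembly factors did not overlap either, at 0.18, 0.24 and 0.30 in sHFD and -0.13, -0.13 and -0.42 in HFD. Complexes I, III, IV and V overlapped as a whole, though some of their parts did not. The 7 core subunits of complex I were at 0.40, 0.12 and 0.27 in sHFD and -0.09, -0.05 and -0.31 in HFD.

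Differences between diets are given as log2 of TPM + 1, a scale that shrinks those of weakly expressed genes, and were tested in limma over all 13655 genes with Benjamini-Hochberg adjustment and a threshold of 0.05. In HFD against ND, 0 of the 93 genes passed, beside 10.9% of all genes tested. Without adjustment 1 gene, Ndufaf1, had a p under 0.05, where 29.8% of all genes did. The HFD libraries lay wholly below ND for 2 genes, Ndufaf3 and Cox4i2, and above ND for 0, beside 27.9% of all genes without overlap and 22.9% wholly below. Differences were above 0 for 37 and below 0 for 56 of the 93, beside 36.5% and 63.5% of all genes. The median difference of the 93 was -0.02, against -0.14 for all genes, and single genes ran from -0.69 (Ndufaf1) to 0.22 (Uqcrfs1, the Rieske iron-sulfur protein of complex III), with a median standard error of 0.22. Rescaling by median ratios moved the median of all genes to 0.01 and that of the 93 to 0.13, so the sign of their median depended on the scaling.

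In sHFD against ND, 0 of the 93 passed in limma, beside 0.00732% of all genes, which is 1 gene. Their differences were above 0 for 90 of 93, where 50.2% of all genes were (49.8% were below), with a median of 0.33 against 0.00 for all genes. Without adjustment 9 had a p under 0.05, beside 7.36% of all genes: 5 of complex I, 1 of complex II, 2 of complex III and 1 of complex V. The 3 sHFD libraries lay above the 3 ND libraries for Ndufs7, Ndufb4 and Ndufa8 and below them for Cox7a2l, which is 4 of 93 genes beside 9.4% of all genes without overlap (4.5% wholly above). The median of the 93 was 0.20 without ND library 1, and without ND library 2 the test passed 3 of the 93 as higher in sHFD (Ndufs1, Sdha and Ndufaf1), beside 1.63% of all genes.

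In HFD against sHFD, 7 of the 93 genes passed in limma, all lower in HFD, which is 7.53%, beside 34.2% of all genes and 23.9% of all genes for lower alone. The differences were below 0 for 92 of 93, where 60.7% of all genes were, with a median of -0.33 against -0.16 for all genes. The HFD libraries lay wholly below the sHFD libraries for 27 genes and above them for 1, beside 51.3% of all genes without overlap and 34.7% wholly below. By class, 3 of 39 complex I genes, 2 of 8 assembly factors, 1 of 4 complex II genes and 1 of 9 complex III genes passed, and 0 of 16 and 0 of 17 in complexes IV and V, where 0 and 1 had an unadjusted p under 0.05. Over the 93 genes 17 had one, beside 45.6% of all genes. The HFD and sHFD libraries also enter the comparisons with ND, so the 3 comparisons share libraries.

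The count of 7 depended on single libraries and on the scaling. It was 1 without sHFD library 1 or HFD library 2, 2 without HFD library 3, 3 without sHFD library 3, 12 without ND library 1 and 13 without ND library 2. Median-ratio scaling left 1 gene, Ndufaf1, and moved the median of all genes from -0.16 to -0.005 and that of the 93 to -0.16; across all genes it gave 2608 higher and 2600 lower in place of 1406 and 3259, and quantile normalization gave 2401 and 2407, with 11 of the 93 lower.

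**Figure D2:**
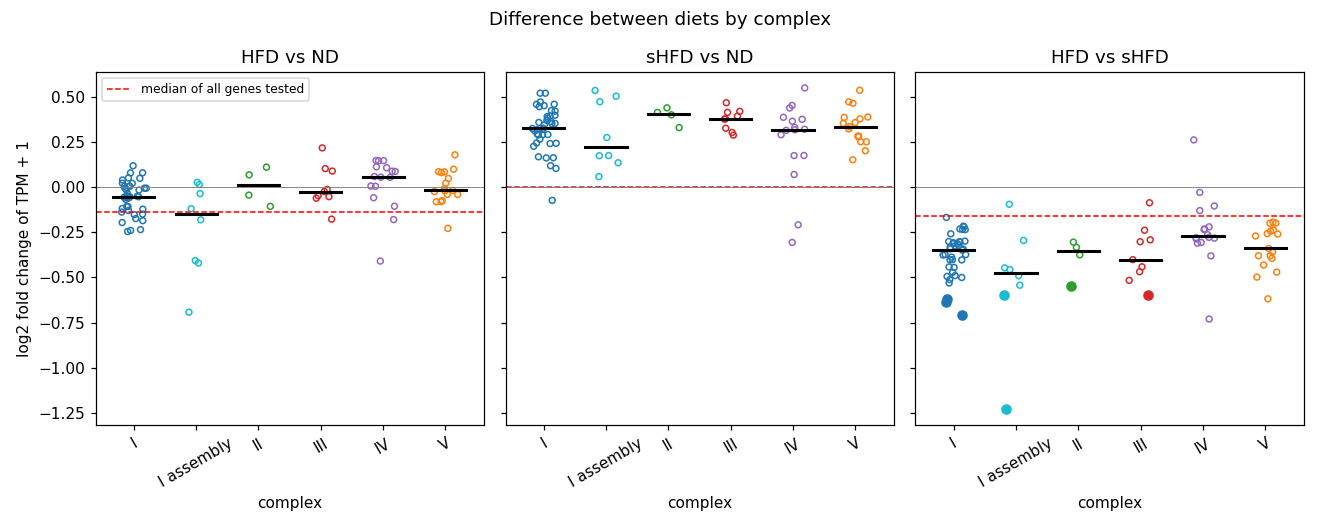
Each point is 1 gene, with its log2 fold change of TPM + 1 on the y axis and its class on the x axis, in 1 panel per comparison; filled points passed the test in limma, black bars are class medians and the dashed line is the median of all genes tested. In HFD against sHFD the class medians lie between -0.47 and -0.27, and the 7 filled points are all below 0.

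Ndufaf1, a factor needed to build the membrane arm of complex I, showed the largest difference. It was at 14.7, 39.7 and 23.4 TPM in ND, 32.1, 39.7 and 34.3 TPM in sHFD and 13.8, 13.9 and 15.7 TPM in HFD. HFD and sHFD did not overlap, and the ND libraries spanned both. In limma it was lower in HFD than in sHFD by a log2 of -1.23 (SE 0.27, adjusted p = 0.00542), and it passed in all 18 alternative settings, with adjusted p from 0.000134 to 0.0261. Against ND the difference was -0.69 (adjusted p = 0.108), and it passed there once ND library 1 was left out (-1.03, adjusted p = 0.00515). The gene lies at chr2:119655446-119662839.

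Ndufaf7, a methyltransferase that acts early in complex I assembly, had 18.5, 35.1 and 26.7 TPM in ND, 27.6, 32.5 and 28.3 TPM in sHFD and 19.2, 17.8 and 20.4 TPM in HFD. HFD lay below sHFD by a log2 of -0.60 (SE 0.21, adjusted p = 0.0438 in limma), and ND library 1 was within the HFD range. It passed in 7 of 18 alternative settings. Of the other assembly factors, Ndufaf3, Ndufaf4 and Ndufaf5 also had HFD libraries wholly below sHFD, with differences of -0.54, -0.49 and -0.46 that did not pass. Ndufaf2, Ndufaf6 and Ndufaf8 overlapped. Ndufaf6 varied least among the assembly factors, from 14.1 to 17.4 TPM over the 9 libraries.

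Among the 7 measured core subunits of complex I, which carry its electron path, 2 were lower in HFD than in sHFD, a share of 28.6% beside 23.9% of all genes. Ndufs7, which holds the last iron-sulfur cluster before coenzyme Q, had 168, 223 and 224 TPM in ND, 338, 249 and 263 TPM in sHFD and 212, 180 and 154 TPM in HFD, a log2 difference between HFD and sHFD of -0.63 (SE 0.18, adjusted p = 0.0179 in limma). Its sHFD libraries were above all 6 others, although sHFD against ND did not pass (0.46, adjusted p = 0.672). Ndufs8, its neighbour in the path, had 120, 175 and 173 TPM in ND, 238, 168 and 198 TPM in sHFD and 146, 142 and 105 TPM in HFD, a log2 difference between HFD and sHFD of -0.62 (SE 0.20, adjusted p = 0.0293). Here ND overlapped both other diets. Ndufv1, which binds NADH, and Ndufs1, the largest core subunit, were at -0.51 and -0.38 with non-overlapping libraries and did not pass.

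Of 32 accessory subunits, Ndufb10 alone passed. It is part of the membrane arm, and had 332, 488 and 440 TPM in ND, 755, 481 and 584 TPM in sHFD and 472, 372 and 277 TPM in HFD, a log2 difference between HFD and sHFD of -0.71 (SE 0.23, adjusted p = 0.0295 in limma). The lowest sHFD library stood close to the highest HFD library and below ND library 2. Ndufa9, which binds NADPH beside the electron path, was at -0.47 with non-overlapping libraries but did not pass (adjusted p = 0.0604). The most abundant gene of the class was Ndufa4, whose product was first counted to complex I and is now placed in complex IV. It ranged from 561 TPM in HFD library 3 to 1111 TPM in sHFD library 1 and passed in no comparison. Ndufb4 and Ndufb4c are named as copies of one gene, between which reads can be split, so their values are uncertain.

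Sdha, the succinate-oxidising subunit of complex II, had 364, 649 and 410 TPM in ND, 654, 663 and 561 TPM in sHFD and 421, 424 and 436 TPM in HFD. The HFD libraries lay close to each other and below sHFD by a log2 of -0.55 (SE 0.20, adjusted p = 0.0486 in limma), and it passed in 7 of 18 alternative settings. Sdhc and Sdhd, which anchor the complex in the membrane, also had HFD libraries wholly below sHFD (-0.37 and -0.33, adjusted p = 0.170 and 0.183). Sdhb overlapped, with 278, 395 and 331 TPM in ND, 527, 342 and 480 TPM in sHFD and 391, 399 and 294 TPM in HFD. Against ND the sHFD differences of all 4 genes lay between 0.33 and 0.44 and none passed.

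In complex III, Uqcrc1, a core subunit facing the matrix, had 436, 610 and 460 TPM in ND, 732, 682 and 590 TPM in sHFD and 475, 420 and 425 TPM in HFD, a log2 difference between HFD and sHFD of -0.60 (SE 0.17, adjusted p = 0.0171 in limma). HFD was wholly below sHFD, and ND library 2 lay within the sHFD range. It passed in 14 of 18 alternative settings. Cyc1, cytochrome c1, followed at -0.52 (adjusted p = 0.0567), with 400, 651 and 490 TPM in ND, 780, 679 and 641 TPM in sHFD and 554, 512 and 408 TPM in HFD. Uqcrfs1, which passes electrons to Cyc1, was at -0.09 (adjusted p = 0.746). Its libraries overlapped in every pair of diets.

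**Figure D3:**
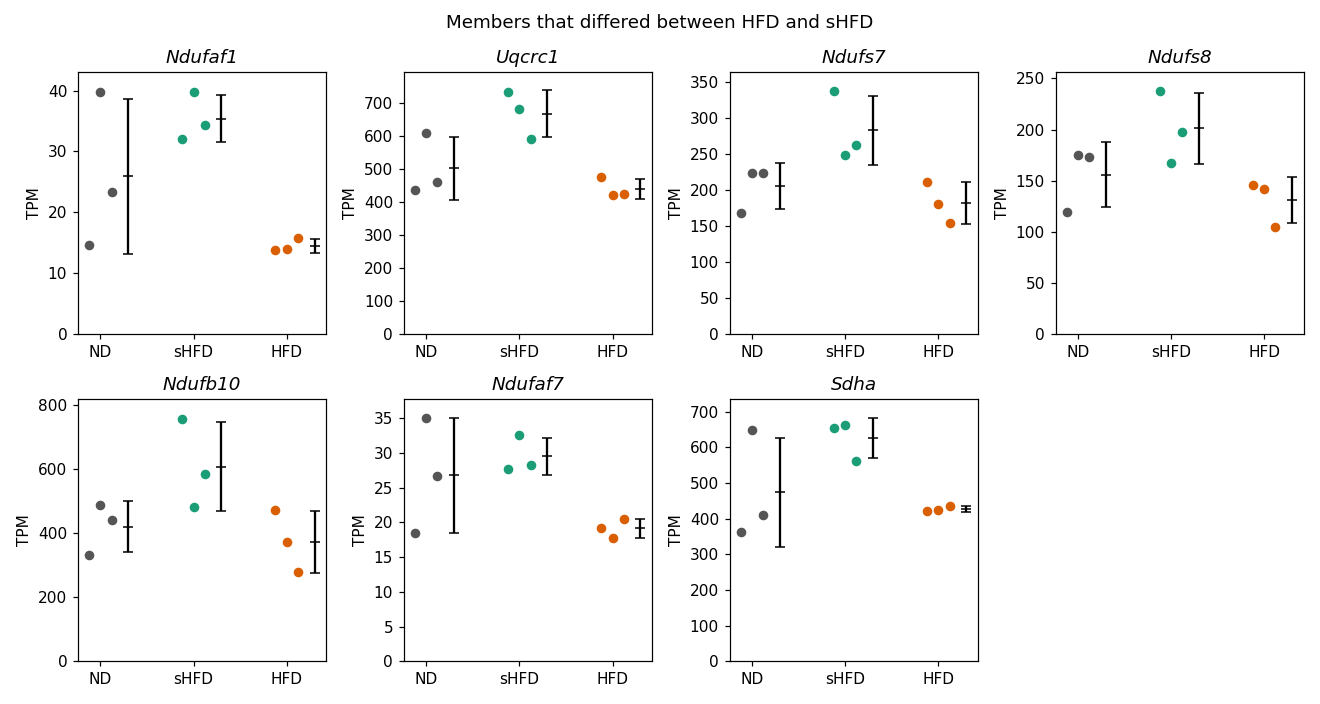
TPM of the 7 genes that passed in HFD against sHFD, with 1 point per library by diet and the mean ± SD of each diet beside it (n = 3). The HFD points lie below the sHFD points in each panel, and ND points reach the range of the sHFD points in all panels but that of Ndufs7.

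In complex IV no gene passed in any comparison. Cox4i1, the regulatory subunit found in most tissues, was the most abundant, from 1558 TPM in HFD library 3 to 2785 TPM in sHFD library 1. Cox7a2l, which helps to join complexes III and IV into supercomplexes, was the only gene of the 93 with a difference above 0 in HFD against sHFD. It had 493, 478 and 561 TPM in ND, 443, 409 and 473 TPM in sHFD and 529, 547 and 513 TPM in HFD. Its sHFD libraries were below all 6 others, with 0.26 for HFD against sHFD (adjusted p = 0.173 in limma) and -0.21 for sHFD against ND (adjusted p = 0.719). With the trend of fold change on transcript length removed it passed in HFD against sHFD (0.48, adjusted p = 0.00847), and the sign was kept under both rescalings.

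Some complex IV subunits come in a heart and skeletal muscle form and a form found in other tissues, and the muscle form takes over as the heart matures. The ratio of the 2 genes within a library does not depend on the library total. For Cox8b over Cox8a it was 0.29, 0.32 and 0.30 in ND, 0.41, 0.39 and 0.38 in sHFD and 0.34, 0.25 and 0.16 in HFD. The sHFD ratios lay above all others, and the HFD ratios were the most spread. The transcripts of Cox8b and Cox8a differ in length (360 and 550 nt), and the part of length in the ratio was not tested. The log2 ratio differed by 0.38 in sHFD against ND and by -0.70 in HFD against sHFD, each with an exact two-sided permutation p of 0.1, the smallest that 3 against 3 libraries allow, and 0.5 when adjusted over 15 tests. The second difference was -0.42 without HFD library 3. Cox8b is also known as a marker of brown fat. Of 8 brown fat markers 4 reached 1 TPM (Cox8b, Cidea, Pparg and Fabp4, the last also an endothelial marker), while Ucp1, the uncoupling protein that defines this fat, was at 0 to 0.60 TPM. All 4 had differences below 0 in HFD against sHFD, as did 60.7% of all genes, with a median of -0.53 against -0.16 for all genes. Cox8b itself, at -0.73, is 1 of the 4 and enters this median, so the list is not independent of the ratio. Of the 4, 1 passed, which is 25.0% beside 23.9% of all genes called lower. This was Cidea, a lipid droplet protein, with 14.8, 24.9 and 18.2 TPM in ND, 29.9, 22.8 and 21.2 TPM in sHFD and 12.5, 13.0 and 14.8 TPM in HFD (adjusted p = 0.0117 in limma), and it did not pass without sHFD library 1. The part of these markers in the ratio was not tested.

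Cox7a1 over Cox7a2 was 0.38, 0.38 and 0.42 in ND, 0.45, 0.31 and 0.36 in sHFD and 0.49, 0.35 and 0.26 in HFD, and Cox6a2 over Cox6a1 ran from 0.77 to 0.99 over the 9 libraries, with all diets overlapping for both. Cox4i2 and Ndufa4l2 are known as forms raised by low oxygen and as marks of pericytes, the cells around capillaries. Cox4i2 over Cox4i1 was 0.0194, 0.0138 and 0.0204 in ND, 0.0110, 0.0103 and 0.0128 in sHFD and 0.0106, 0.0134 and 0.0141 in HFD. ND was above sHFD in all libraries (log2 ratio -0.62 in sHFD against ND, exact permutation p = 0.1, adjusted 0.5). Beside it, 6 of 11 pericyte markers were lower in HFD than in ND (54.5%, beside 9.59% of all genes). In HFD against sHFD 8 were lower (72.7%, beside 23.9% of all genes). In sHFD against ND 0 differed, beside 0.00732% of all genes. The counts of 6 and 8 were 3 and 7 with median-ratio scaling, and ran from 1 to 6 and from 4 to 8 when a library was left out. The list holds both genes, and the part of these markers in the ratio was not tested. Ndufa4l2 over Ndufa4 ran from 0.0457 to 0.0909, with all diets overlapping. None of the 15 ratio tests fell below an adjusted p of 0.5.

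**Figure D4:**
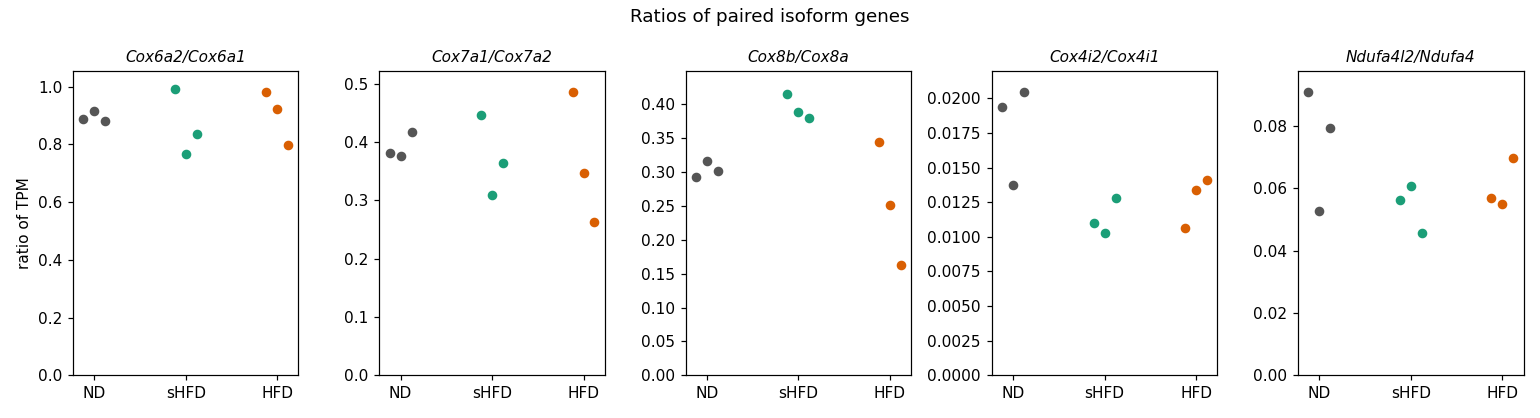
Ratio of TPM within each library for 5 pairs of related genes, on linear axes from 0, with 1 point per library by diet. For Cox8b over Cox8a the sHFD points lie at 0.38 to 0.41 and the HFD points at 0.16 to 0.34.

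Complex V held the most abundant genes of the set. Atp5b, the catalytic beta subunit, had 2720, 4180 and 3024 TPM in ND, 4258, 4050 and 3917 TPM in sHFD and 3555, 3572 and 3211 TPM in HFD. HFD lay wholly below sHFD, but the difference was -0.24 (SE 0.21, adjusted p = 0.378 in limma). Atp5a1, the alpha subunit, was at -0.20 (adjusted p = 0.445), and its HFD libraries too lay wholly below sHFD. Atp5g1, Atp5g2 and Atp5g3 code for the same c subunit of the rotor, and Atp5g3 gave the most TPM, with a mean of 2110 against 743 for Atp5g1 and 479 for Atp5g2. Atp5g1 had the largest difference of the class in HFD against sHFD, -0.62 (adjusted p = 0.0790), with 1109, 795 and 917 TPM in sHFD and 857, 638 and 408 TPM in HFD, which overlap.

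The spread between libraries of a diet differed by gene and followed transcript length. Across the 92 genes with a known length, the SD of log2(TPM + 1) within diets had a Spearman correlation of -0.64 with length. Across 13269 other genes it was 0.09, but 12263 of these were over 1000 nt. The points share the same 9 libraries. The median SD of the 92 was 0.395 up to 600 nt, 0.308 from there to 1000 nt and 0.253 above. For the other genes it was 0.376, 0.278 and 0.251, so they too were more widely spread at short lengths. Atp5k, a small membrane subunit of complex V with a transcript of 371 nt, had the widest spread of the 92 genes. It was at 217, 248 and 314 TPM in ND, 605, 253 and 296 TPM in sHFD and 517, 249 and 125 TPM in HFD. Cox7a2l, at 1129 nt, had the narrowest, an SD of 0.10.

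The length classes used here and above were set after the values of the genes were seen. The 33 genes of up to 600 nt had medians of -0.34, 0.01 and 0.03 in ND, 0.56, -0.21 and 0.31 in sHFD and 0.29, -0.02 and -0.65 in HFD. For the 32 genes over 1000 nt they were -0.45, 0.23 and -0.13 in ND, 0.28, 0.13 and 0.25 in sHFD and -0.07, 0.01 and -0.30 in HFD. The longer genes thus had sHFD libraries closer to each other and above all HFD libraries, while the shorter ones overlapped. The 212 other genes of up to 600 nt were at 0.02, -0.05 and 0.23 in ND, 0.21, -0.16 and 0.17 in sHFD and 0.05, -0.05 and -0.38 in HFD, with HFD library 3 again the lowest and ND library 1 not low. The part of length in the differences between diets was not tested beyond the fit with its trend removed, which passed 5 of the 93 in HFD against sHFD, 4 of them lower (Ndufaf1, Ndufs7, Ndufs8 and Ndufb10) and Cox7a2l higher.

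**Figure D5:**
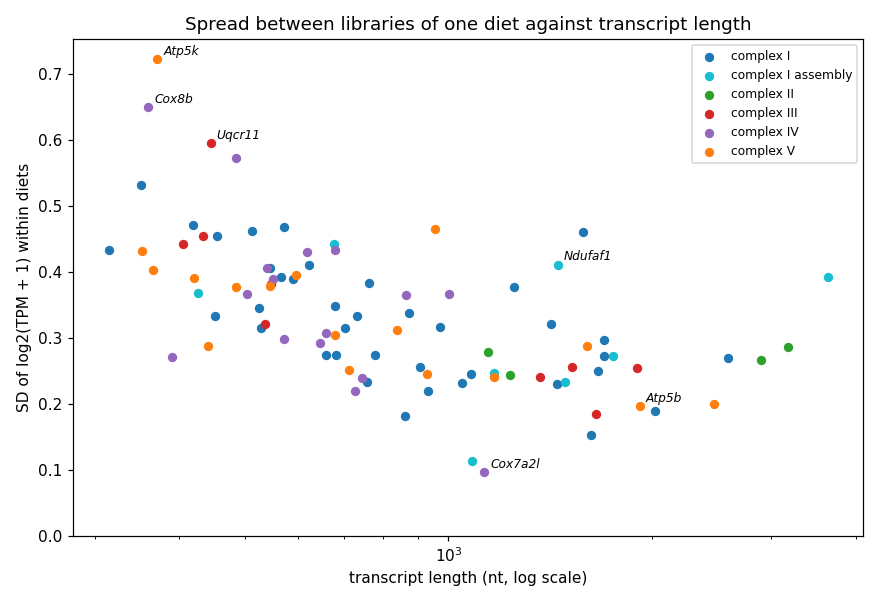
SD of log2(TPM + 1) between libraries of the same diet (y axis) against transcript length in nt (x axis, log scale) for 92 genes coloured by class. The widest spreads are at short transcripts, such as Atp5k at 371 nt, and Cox7a2l has the narrowest.

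Genes around the chain were read beside it. Of 48 measured assembly genes of complexes I to V other than Ndufaf, 26 were lower and 0 higher in HFD than in sHFD in limma, which is 54.2%, beside 23.9% of all genes called lower, with a median of -0.58 against -0.16 for all genes. The count was 16 lower and 1 higher under quantile normalization and 14 lower without sHFD library 3. Coa4, an assembly factor of complex IV, had 4.2, 9.9 and 6.5 TPM in ND, 14.6, 9.0 and 8.5 TPM in sHFD and 2.2, 3.4 and 3.1 TPM in HFD, a log2 difference between HFD and sHFD of -1.57 (SE 0.29, adjusted p = 0.00241). Tmem126b, which acts with Ndufaf1 on the membrane arm of complex I, was at -1.45 (adjusted p = 0.00304). Surf1, for complex IV, had 38.9, 40.3 and 46.4 TPM in ND, 37.9, 38.1 and 41.7 TPM in sHFD and 27.8, 27.0 and 27.4 TPM in HFD. These 3 were also the genes of the list that were lower in HFD than in ND, beside 9.59% of all genes. That count rose to 25 without ND library 1, where 20.9% of all genes were called lower, and was 0 without ND library 2 or ND library 3. In sHFD against ND 0 passed, and 7 had an unadjusted p under 0.05, beside 7.36% of all genes. Without ND library 2, 4 passed as higher in sHFD, beside 1.63% of all genes. Whether assembly genes and subunits differ in their response was not tested.

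Of 18 measured genes of electron carriers, which are cytochrome c and genes that make or feed the coenzyme Q pool, 9 were lower in HFD than in sHFD (50.0%, beside 23.9% of all genes) and 3 lower than in ND (16.7%, beside 9.59%). The first count ran from 6 to 11 and the second from 0 to 7 when a library was left out, and both rescalings gave 7 and 1. In sHFD against ND 0 passed in limma, and 7 had an unadjusted p under 0.05, beside 7.36% of all genes. Without ND library 2, 3 passed as higher in sHFD, beside 1.63% of all genes. Coq3, a methyltransferase of coenzyme Q synthesis, had 5.7, 17.9 and 10.6 TPM in ND, 20.2, 19.8 and 20.5 TPM in sHFD and 3.6, 3.9 and 3.4 TPM in HFD, a log2 difference between HFD and sHFD of -2.20 (SE 0.29, adjusted p = 0.000955 in limma). The HFD libraries were below all 6 others. Cycs, cytochrome c itself, was at -0.58 in HFD against sHFD and did not pass (adjusted p = 0.110). In the citric acid cycle 2 of 14 genes, Idh3a and Ogdh, were lower in HFD than in sHFD (14.3%, beside 23.9% of all genes). The count was 1 with median-ratio scaling and 3 with quantile normalization. Differences were below 0 for all 14, where 60.7% of all genes were, with a median of -0.37 against -0.16 for all genes. The HFD libraries lay wholly below sHFD for 13 of the 14, beside 34.7% of all genes. Of 20 genes of mitochondrial membranes and import 6 were lower, or 30% beside 23.9% of all genes. The count was 2 with median-ratio scaling and 7 with quantile normalization. Tomm20 alone was higher, where 10.3% of all genes were. The HFD libraries lay wholly below sHFD for 13 of the 20 and above for 1, beside 34.7% and 16.6% of all genes.

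Among 20 regulators of respiratory genes 9 were lower and 2 higher in HFD than in sHFD, beside 23.9% and 10.3% of all genes, 8 and 4 with median-ratio scaling and 6 and 3 with quantile normalization. Perm1, a muscle coactivator partner of the estrogen-related receptors, had 10.3, 38.7 and 17.5 TPM in ND, 48.6, 49.5 and 34.0 TPM in sHFD and 6.3, 7.9 and 7.4 TPM in HFD, a log2 difference between HFD and sHFD of -2.44 (SE 0.34, adjusted p = 0.00109 in limma). Esrra, the receptor ERR alpha, was at -0.89 (adjusted p = 0.00514). Ppargc1a, a coactivator of mitochondrial genes, was at 0.24 with overlapping libraries (adjusted p = 0.516). In HFD against ND, Klf15 was higher, as were 1.28% of all genes, and Perm1 and Polrmt, the mitochondrial RNA polymerase, were lower. None of the 3 passed without HFD library 1, HFD library 2 or ND library 3.

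Cell markers also varied between the libraries. The medians of the 12 cardiomyocyte markers on the scale used above were -0.41, 0.20 and -0.33 in ND, 0.43, 0.29 and 0.19 in sHFD and -0.07, -0.11 and -0.25 in HFD, with ND library 1 the lowest and sHFD library 1 the highest. Of these markers 3 (Myl2, Myl3 and Pln) were lower in HFD than in sHFD (1 with median-ratio scaling), which is 25.0% beside 23.9% of all genes. Against ND 0 passed in either diet. Without adjustment 5 had a p under 0.05 in sHFD, beside 7.36% of all genes, and 0 in HFD, beside 29.8%. Of 12 immune cell markers 11 were lower in HFD than in ND, beside 9.59% of all genes, and 6 lower than in sHFD, beside 23.9%. The first count was 9 with median-ratio scaling, 6 with quantile normalization, 4 without HFD library 1 and 0 without HFD library 2 or ND library 3. The 7 measured red cell genes, mostly of hemoglobin, summed to 8058, 8047 and 18762 TPM in ND, 12970, 9309 and 11754 TPM in sHFD and 7717, 5820 and 4252 TPM in HFD, so the HFD sums were below all others. In HFD 6 of them were lower than in sHFD, or 85.7% beside 23.9% of all genes, with a median of -0.88 and no overlap for all 7, and 1 was lower than in ND. The first count was 2 with median-ratio scaling, 4 with quantile normalization, 1 without sHFD library 1 or HFD library 2 and 2 without sHFD library 3 or HFD library 3, and the second was 5 without ND library 1 and 0 without HFD library 1, HFD library 2 or ND library 3. The hemoglobin genes are near-identical pairs between which reads can be split. The part of these markers in the values of the respiratory genes was not tested.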

How the data were processed

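RNA-seq of newborn cardiomyocytes gave 9 libraries, 3 per maternal diet. The authors deposited 1 table of TPM, and per the labels' protocols the libraries were built from mRNA. The submitters' processing notes name RSEM 1.3.1 and GRCm38; no aligner or annotation is given in the sources used here. Columns named CON, MID and HIGH were read as ND, sHFD and HFD, with the replicate number in the name. Each column sums to between 999999 and 1000001 TPM, so a level is relative to the genes listed, and TPM keeps no depth.

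Values were taken as log2(TPM + 1) for the 13655 genes averaging 1 TPM or more and fitted to the 3 diets in limma 3.58.1 (R 4.3.3) with a variance trend, two-sided, with Benjamini-Hochberg adjustment over all these genes and a threshold of 0.05. The test was tested on simulated data. Isoform ratios had an exact permutation test. Lengths are those of the transcript with the longest coding sequence per gene in GENCODE, positions and promoters those of RefSeq GRCm38.p6. Named genes were the 3 most abundant of each class, the 3 of smallest p per comparison, those that passed, and fixed isoforms, plus genes singled out after their values were seen (Ndufa8, Ndufaf5, Ndufaf6, Ndufs1, Ndufv1 and Atp5k among them). Some genes that meet the naming rule are not named here. Members and lists were chosen with earlier results of these data known. Alternatives covered the pseudocount (0.1), the filter (5 TPM, none), median-ratio and quantile scaling, transcript length, the libraries fitted, the variance trend, a replicate block and leaving out each library. Alternatives for the gene lists were added after seeing the data.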

Additional observations from a re-analysis of the deposited data

How the results depend on the processing

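In HFD against sHFD the count of 7 genes was 4 with no filter on low values, 1 with median-ratio scaling, 11 with quantile normalization and 15 with only the 2 diets compared, and ran from 1 to 13 when a library was left out. In HFD against ND it was 0 under each alternative but leave-one-out, which gave 0 to 2, and in sHFD against ND likewise, with 0 to 3. The difference of the 7 genes kept its sign in all 18 alternatives, and Ndufaf1 alone passed in each. With the replicate number as a block the counts were 0, 0 and 7. Same-numbered libraries correlated from -0.287 to 0.413 in their deviations from the diet means, and differently numbered ones from -0.352 to 0.347. With 3 libraries a diet these values cannot show whether the numbers pair the samples. The counts over all genes moved too: in HFD against ND from 1484 to 763 with no filter and 420 with only the 2 diets compared, and across left-out libraries from 32 to 3842, in sHFD against ND from 1 to between 0 and 360, and in HFD against sHFD from 4665 to between 2696 and 5458. Over 2646 values of named genes under alternatives, 41 lost and 20 gained a call, 135 changed sign without a call on either side, and 0 reversed with one; of 120 isoform ratio values 11 changed sign. The causes were not tested. With 3 libraries a diet and an SE near 0.22, differences as small as the medians seen here could not be told from 0 gene by gene, and no depth is known.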
